A study of Lactuca sativa var. capitata with 10 samples.

Results

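The genes described here are 121 root genes of lettuce whose expression differed strongly between pools of plants grown in the same way, in potting soil and in chitin-amended potting soil alike, while the means of both treatments stayed close. They were chosen from the counts themselves. Counts were divided by the total of the pool and multiplied by 1000000, which gives CPM, and a gene was taken when its mean was at least 1 CPM in each treatment, when the SD divided by the mean (SD/mean) was at least 0.5 among the 5 pools of each treatment, and when the ratio of the treatment means lay between 0.67 and 1.5. PR1 and the 200 genes with the highest mean in PS were left out. The counts cover 38293 genes, of which 28458 had any count and 20280 had a mean of at least 1 CPM in both treatments, so that the 121 members are 0.597% of the latter (named the expressed genes below).

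The study compared roots of butterhead lettuce (L. sativa var. capitata 'Alexandria', genotype wt) between non-treated potting soil (PS) and soil amended with chitin at 2 g per L (PS+CH). Seedlings were transplanted at the 3 to 4 true leaf stage and roots were sampled at 72 h post-transplanting (hpt). Each treatment had 5 replicates, each a pool of 5 randomly selected plants, grown in a greenhouse where temperature and light followed the weather. Chitin is the polymer of fungal cell walls and of crab shells, and roots sense its fragments as a sign of fungi.

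A pool averages over its plants. A transcript that differs widely between pools of the same treatment differed between sets of plants of 1 genotype or between their libraries, which cannot be told apart here. In plants, many transcripts of defense, wounding, drought and light responses are inducible, and root tip, older root and stem base differ in many others. PR1, a marker of salicylic acid-dependent defense, is a well-known inducible gene. The locus tags of the members are not paired with names in the files or in the reference table used here, and no member is among the 38 genes that could be tied to a name in the study, so the members are given by tag and without a role.

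Total counts were alike, between 17624520 and 18545790 per pool. Between 25093 and 25884 genes had a count in a pool, with the lowest numbers in PS+CH replicate 4 (25093) and PS replicate 1 (25313). TMM factors ranged from 1.009 to 1.081 for the PS pools and from 0.9485 to 0.9865 for the PS+CH pools, and replicate 3 had the highest factor of the PS pools. A level of 1 CPM corresponded to 18.0 counts, for which counting alone gives an SD/mean of 23.5%, and 3 counts corresponded to 0.162 to 0.170 CPM. Fewer cells of a type and less RNA per cell cannot be told apart in pooled roots. Markers of root tissue could not be looked up by name. As a possible sign of green tissue, the summed CPM of 7 photosynthesis genes ranged from 2.31 to 13.0 for the PS pools and from 2.75 to 47.9 for the PS+CH pools. The study listed these 7 genes as raised by chitin in roots, so a higher level in PS+CH came with their choice. For their rise, the paper proposes that roots might recycle CO2 from respiration. They are thus not neutral markers of green tissue between the treatments.

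Most expressed genes were steady between pools. Their median SD/mean was 0.151 in PS and 0.117 in PS+CH. An SD/mean of at least 0.5 was found for 641 genes in PS (3.16%) and 564 in PS+CH (2.78%), and 342 genes (1.69%) had it in both treatments. These 342 were 53.4% of the PS list and 60.6% of the PS+CH list. Of them, 148 had a PS+CH mean at or under 0.67 of the PS mean, 72 were at or over 1.5 times, and 122 lay between. The shares of all expressed genes beyond these bounds were not computed, and the ratios are of CPM without TMM scaling, so no direction is read from them. None of the 122 was among the 200 genes left out for their abundance, and leaving out PR1 gave the 121 members. At the threshold, LSAT_3X14141 (0.502 in PS and 0.660 in PS+CH) and LSAT_6X31481 (0.504 in PS) were just inside. LSAT_2X74080 (0.498 in PS+CH) and LSAT_9X108501 (0.498 in PS) were just outside.

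**Figure D1:**
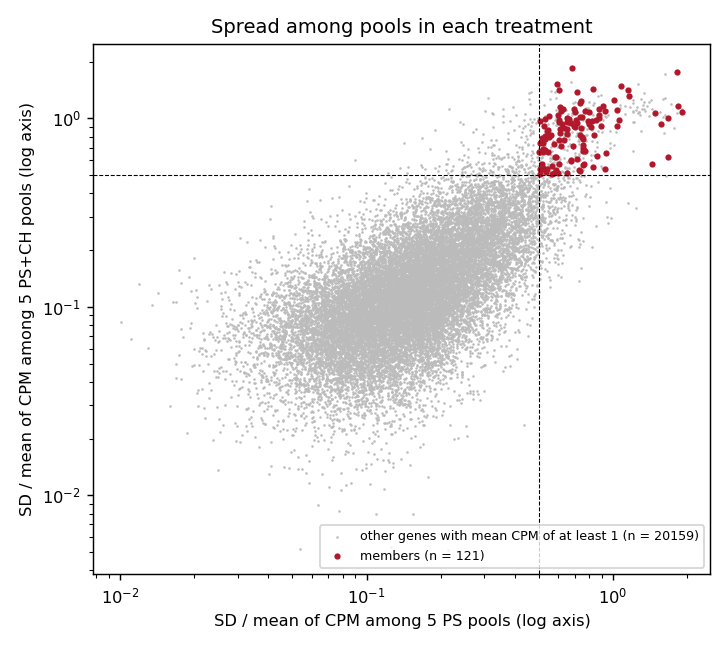
SD divided by the mean of CPM among the 5 PS pools (x, log axis) and the 5 PS+CH pools (y, log axis) for each expressed gene, with the 121 members in red, 20159 other genes in grey and the threshold of 0.5 as dashed lines. Grey points beyond both lines are PR1 and genes whose treatment ratio put them outside the rule, and the members reach 1.91 in PS and 1.85 in PS+CH.

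The members were mostly low to middle in expression. Their means over the 10 pools were between 1.11 and 129 CPM with a median of 3.59 CPM. The mean was at least 10 CPM for 24 members and under 2 CPM for 40. By the rule their SD/mean was high, with medians of 0.678 in PS and 0.875 in PS+CH. The highest PS pool was 3.04 to 298 times the lowest (median 6.48) and the highest PS+CH pool 3.07 to 119 times (median 9.15), where a lowest pool under 3 counts was raised to 3 counts. Among all expressed genes the medians of these folds were 1.46 and 1.33. A pool without any count occurred in 6 members and a pool under 3 counts in 16, and the folds of these 16 are lower bounds in the treatment concerned.

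How far the spread rested on 1 pool differed between members. With the highest pool of each treatment left out, SD/mean stayed at or above 0.5 for 74 of the 121 members in PS and for 88 in PS+CH, and for 62 in both. The rest fell under it in at least 1 treatment. These are the values that chose the members, and the same was not counted for all expressed genes, so the counts only describe the members. With 1 pool left out, the rule kept 46 (without PS+CH replicate 2) to 104 (without PS replicate 5) of the 121.

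The pools in which the members were high were few. Among the PS pools, 62 of 121 members (51.2%) were highest in replicate 2, against 19.0% of the expressed genes. Replicate 3 was highest for 34 members (28.1%), fewer by share than the 37.7% of the expressed genes, and replicates 1, 4 and 5 for 10, 12 and 3 members, with backgrounds of 15.1%, 17.6% and 10.6%. Among the PS+CH pools, 87 members (71.9%) were highest in replicate 2 against 20.4% of the expressed genes. Replicate 5 followed with 17 members (14.0%, background 21.1%) and replicate 3 with 13 (10.7%, background 21.7%), while replicates 1 and 4 were highest for 3 members and 1 member (backgrounds 18.8% and 17.9%). PS replicate 2 and PS+CH replicate 2 were both the highest pools for 61 members, a pattern held by 6.49% of the expressed genes. Replicate numbers are those of the sample titles, and the descriptions number PS replicate 5 and all PS+CH pools differently. Nothing in the labels says whether a shared number marks a shared origin. At the low end, PS replicate 1 was lowest for 82 members and PS+CH replicate 4 for 73. Since most members moved together, these counts are not counts of independent genes.

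**Figure D2:**
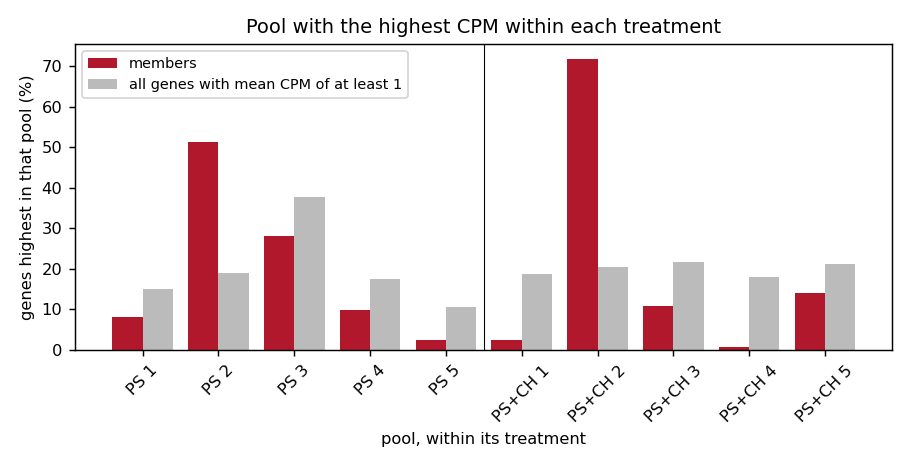
Share of genes (%) whose CPM was highest in each pool of their treatment, for the 121 members (red) and all 20280 expressed genes (grey). PS replicate 2 (51.2% of members) and PS+CH replicate 2 (71.9%) stand above the grey bars, and PS+CH replicate 4 was highest for 0.826% of members.

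To see which members moved together, log2(CPM + 1) was taken relative to the mean of each treatment and members were grouped by average linkage on Pearson's r over the 10 pools, with the tree cut at 0.4. The first principal component of these values held 67.9% of the members' variance and the second 12.9%, against 35.2% and 22.9% for the 20159 other expressed genes. The first component weighted the pools in a similar way in both sets. Its weights were -0.44 in the members and -0.52 in the other genes for PS replicate 1, and 0.38 and 0.34 for PS replicate 2. For PS+CH replicate 2 they were 0.51 and 0.43, and for PS+CH replicate 4 -0.40 in both. The order of pools in the members was thus also the leading axis among the other expressed genes, and it is not particular to the members. One group held 83 of the 121 members (68.6%), and the other 38 fell into groups of 8, 7, 7, 6 and fewer. The median of all pairwise r was 0.881 inside the group of 83 (lowest 0.191) and 0.190 among the other 38 members. These correlations describe genes over the same 10 libraries, whose depth they share, and grouping by them leaves nothing to test.

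**Figure D3:**
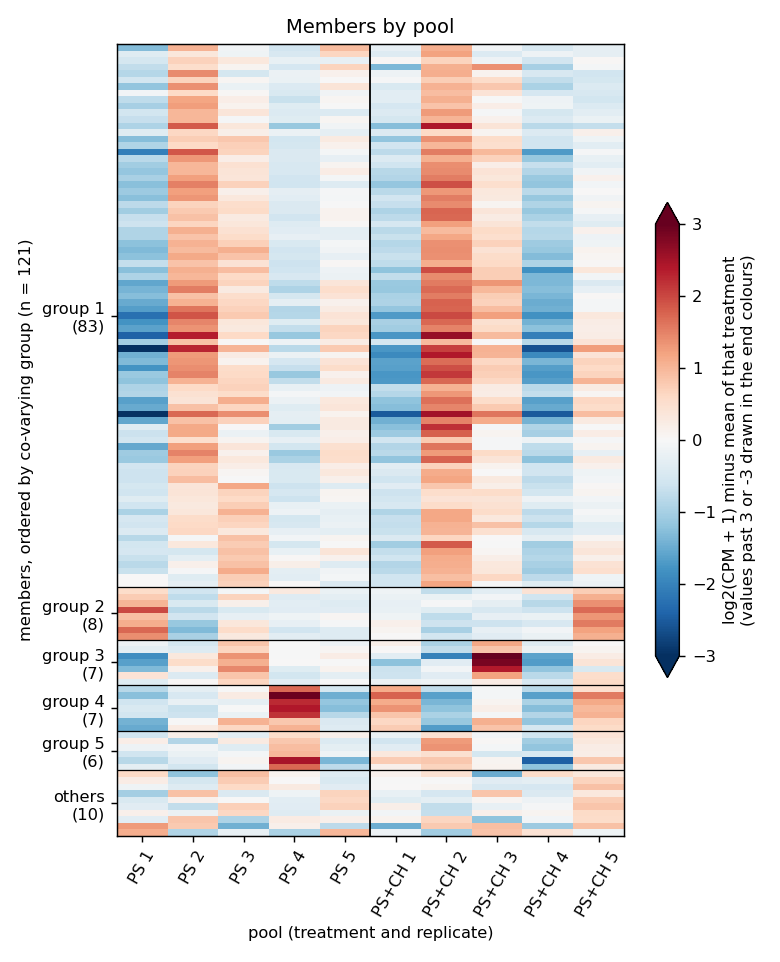
Each row is 1 of the 121 members and each column 1 pool, coloured by log2(CPM + 1) minus the mean of that treatment, with values past 3 or -3 in the end colours and members ordered by co-varying group (size in brackets). In group 1 the replicate 2 pools are mostly red and PS replicate 1, PS+CH replicate 1 and PS+CH replicate 4 mostly blue, and each smaller group has its own red pools.

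The group of 83, group 1, made up between 0.0268% and 0.207% of the counts of a pool. Its summed expression was 299.7, 2072, 1142, 527 and 997 CPM in PS replicates 1 to 5 and 323, 2027, 1092, 268 and 691 CPM in PS+CH replicates 1 to 5. Replicate 2 of each treatment was thus far above the rest, replicates 3 and 5 lay between, and replicates 1 and 4 were low. The means were 1007 ± 686 CPM in PS and 880.1 ± 721 CPM in PS+CH (SD, n = 5), and the ranges of the treatments overlapped nearly in full. The highest pool was 6.91 times the lowest in PS and 7.58 times in PS+CH.

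Most of the 83 genes shared their highest and lowest pools. PS replicate 2 was the highest PS pool for 60 of them, PS replicate 3 for 21 and PS replicate 5 for 2. PS+CH replicate 2 was the highest PS+CH pool for 81, and all 83 were above their treatment mean there and below it in PS+CH replicate 4. PS replicate 1 was the lowest PS pool for 71. Replicates 1 and 4 were the lowest pair in PS for 70 genes (13.1% of the expressed genes) and in PS+CH for 75 (14.6%), and in both for 65 (4.32%). The 2 PS+CH pools at the low end shared the lowest place, with 57 genes lowest in PS+CH replicate 4 and 23 in PS+CH replicate 1.

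Group 1 moved in part with the number of genes detected. PS replicate 1 and PS+CH replicate 4, lowest in the summed expression, also had the fewest genes with counts of their treatment, and in PS+CH the order of the 5 pools was the same for both measures. In PS it was not, since replicate 2 was the highest in group 1 and next to the lowest in genes with counts (25613). The part of detection in the group's spread was not tested.

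The size of the swing differed widely inside the group. The fold between the highest and the lowest pool was 3.05 for LSAT_1X112400 and at least 298 for LSAT_3X38381 in PS, with a median of 6.23, and 3.29 for LSAT_3X19861 and 119 for LSAT_7X93820 in PS+CH, with a median of 9.30. It was 10-fold or more for 23 of the 83 genes in PS, for 37 in PS+CH and for 19 in both. Mean expression was at least 10 CPM for 19 genes of the group and under 2 CPM for 25. On the log2(CPM + 1) scale, the median of the group lay 0.94 above the treatment mean in PS replicate 2 and 1.30 above it in PS+CH replicate 2, and the deviation was -0.93 in PS replicate 1, -0.79 in PS+CH replicate 1 and -0.91 in PS+CH replicate 4.

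**Figure D4:**
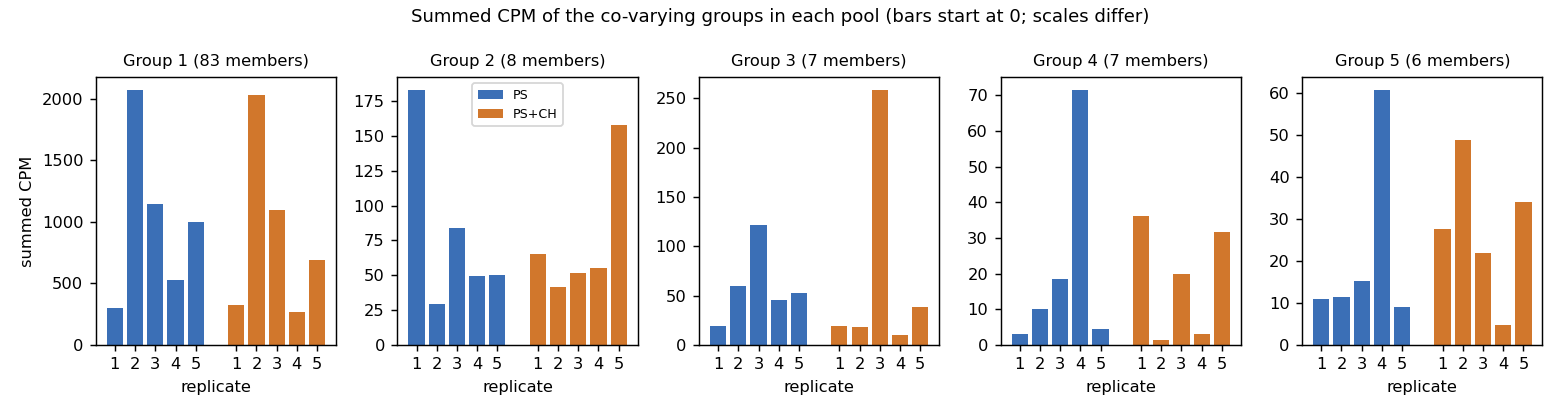
Summed CPM of the 5 largest co-varying groups in each pool, with PS in blue, PS+CH in orange and replicate numbers on the x axis (bars start at 0 and each panel has its own scale). Group 1 peaks at 2072 and 2027 CPM in the replicate 2 pools, group 2 at 183 CPM in PS replicate 1, group 3 at 259 CPM in PS+CH replicate 3, and groups 4 and 5 at 71.6 and 60.8 CPM in PS replicate 4.

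The most abundant member, LSAT_9X76100, had 51.7, 307, 120, 50.3 and 160 CPM in PS replicates 1 to 5 and 57.8, 247, 152, 57.4 and 85.6 CPM in PS+CH replicates 1 to 5. LSAT_3X33940 had 22.7, 223, 118, 39.0 and 87.1 CPM in PS and 29.4, 225, 128, 23.9 and 63.7 CPM in PS+CH, in the same order of replicates. Both were highest in the replicate 2 pools, and the PS and PS+CH values overlapped. With r of at least 0.9, 61 of the 83 genes followed the mean profile of the group, and LSAT_3X33940 was among the 5 that followed it most closely, together with LSAT_5X23801, LSAT_5X159200, LSAT_5X73301 and LSAT_2X98921.

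LSAT_4X173421, LSAT_8X142881, LSAT_8X154380, LSAT_8X142920, LSAT_9X6000 and LSAT_3X34120 had means between 28.1 and 63.1 CPM, and PS replicate 2 and PS+CH replicate 2 were highest in each. Within PS+CH, LSAT_8X142881 was at 12.9, 163, 72.1, 12.6 and 64.1 CPM, so that the high and the low pools were 12.9-fold apart. LSAT_1X40420 had a different shape at 13.0, 66.5, 16.4, 21.5 and 26.5 CPM in PS and 20.2, 49.2, 24.4, 15.7 and 14.8 CPM in PS+CH. Only the replicate 2 pools stood out in it.

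Some genes of group 1 were near silent in the low pools. LSAT_9X16260 had 1.69, 72.7, 20.9, 5.63 and 21.1 CPM in PS and 2.24, 66.0, 20.1, 1.62 and 11.7 CPM in PS+CH. LSAT_3X38381 had 0.113, 50.4, 20.6, 5.02 and 17.2 CPM in PS and 1.31, 31.2, 15.0, 0.270 and 17.6 CPM in PS+CH. In PS replicate 1 the latter was under the level of 3 counts, and PS replicate 2 was the highest of its 10 pools. LSAT_6X108340 was alike, with 0.113 CPM in PS replicate 1 and 18.1 CPM in PS replicate 2, and with 0.270 CPM in PS+CH replicate 4 and 16.7 CPM in PS+CH replicate 2. Of the less abundant genes, LSAT_3X114961 ranged from 0.0563 to 6.22 CPM in PS and from 0.0539 to 8.04 CPM in PS+CH, and LSAT_2X98921 from 0.169 to 4.42 CPM and from 0 to 5.23 CPM. LSAT_6X8401 had 24.1 CPM in PS replicate 2 and 21.2 CPM in PS+CH replicate 2, and no other pool was over 7.82 CPM.

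The 21 genes of group 1 that were highest in PS replicate 3 had means of at most 11.6 CPM, while the 60 that were highest in PS replicate 2 reached 129 CPM. LSAT_7X88540, the most abundant of the 21, had 6.92, 11.4, 26.1, 9.25 and 10.8 CPM in PS, so that replicate 3 was alone at the top. In PS+CH it had 4.54, 19.1, 11.3, 3.61 and 12.7 CPM with replicate 2 highest, as in 20 of the 21 genes. It was named after its values were seen.

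**Figure D5:**
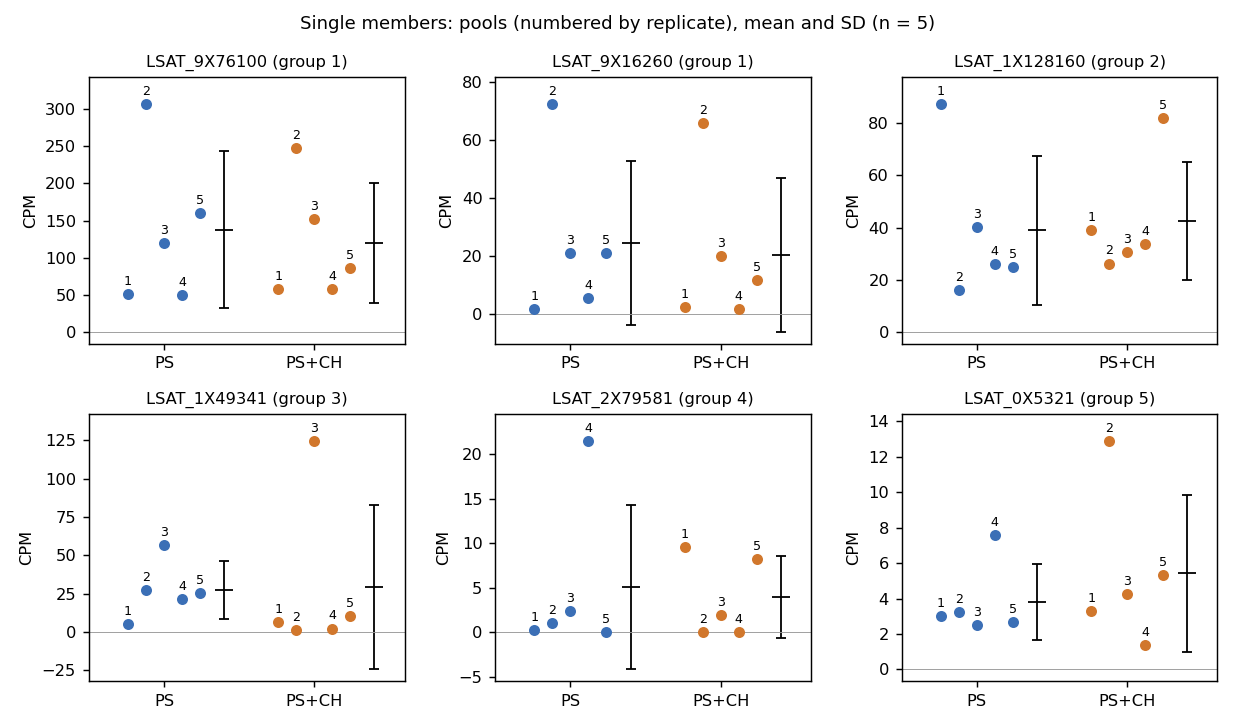
CPM of 6 members in each pool (points, numbered by replicate, PS in blue and PS+CH in orange) with the mean and SD of the 5 pools beside them (black). LSAT_9X76100 and LSAT_9X16260 (group 1) are highest in both replicate 2 pools, LSAT_1X128160 (group 2) in PS replicate 1 and PS+CH replicate 5, LSAT_1X49341 (group 3) at 125 CPM in PS+CH replicate 3, LSAT_2X79581 (group 4) in PS replicate 4, and LSAT_0X5321 (group 5) in PS replicate 4 and PS+CH replicate 2.

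The 4 groups that follow had fewer than 10 members each and were singled out after their values were seen. Group 2, with 8 members, summed to 183, 29.1, 83.7, 49.5 and 50.2 CPM in PS and 65.6, 41.8, 51.5, 55.4 and 158 CPM in PS+CH. It was thus highest in PS replicate 1, where group 1 was the lowest of the PS pools, and in PS+CH replicate 5, where group 1 lay between. In PS+CH replicates 1 and 4, which were low in group 1, group 2 lay between. Group 2 was lowest in the replicate 2 pool of each treatment. Its most abundant gene, LSAT_1X128160, had 87.5, 16.2, 40.1, 26.2 and 24.9 CPM in PS and 39.1, 26.3, 30.8, 33.9 and 82.1 CPM in PS+CH. LSAT_3X123420 was nearly confined to the same 2 pools, with 5.91 CPM in PS replicate 1 and 4.24 CPM in PS+CH replicate 5, and 0.390 CPM at most in the other 8. The 3 members with r of -0.5 or less with the profile of group 1 (LSAT_1X127780, LSAT_1X128160 and LSAT_9X48141) were all in group 2.

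Group 3, with 7 members, summed to 18.7, 59.8, 121, 45.5 and 52.5 CPM in PS and 18.6, 18.1, 259, 9.81 and 37.8 CPM in PS+CH, and replicate 3 was the highest pool of both treatments. LSAT_1X49341 carried much of it, with 5.23, 27.3, 57.0, 21.7 and 25.6 CPM in PS and 6.62, 1.35, 125, 2.16 and 10.2 CPM in PS+CH. LSAT_1X49441 followed it with 88.2 CPM in PS+CH replicate 3 and at most 15.2 CPM in the other PS+CH pools. PS+CH replicate 3 stood far above the others in both. Without it, SD/mean in PS+CH was 0.810 for LSAT_1X49341 and 0.718 for LSAT_1X49441, against 1.85 and 1.52 with all pools.

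Group 4, with 7 members, summed to 3.10, 9.97, 18.5, 71.6 and 4.34 CPM in PS and 36.1, 1.29, 19.9, 2.91 and 31.7 CPM in PS+CH. It was high in PS replicate 4, PS+CH replicate 1 and PS+CH replicate 5. LSAT_2X79581 had 0.225, 1.06, 2.44, 21.5 and 0.0549 CPM in PS and 9.51, 0, 1.99, 0 and 8.21 CPM in PS+CH. The highest pools of LSAT_2X79501, LSAT_2X79600, LSAT_2X79541 and LSAT_4X182521 were likewise PS replicate 4, at 12.5, 13.1, 7.08 and 5.46 CPM. In PS+CH these 4 genes were highest in replicate 1 or 5 and at most 0.539 CPM in replicates 2 and 4.

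Group 5, with 6 members, summed to 11.0, 11.4, 15.2, 60.8 and 8.89 CPM in PS and 27.6, 48.8, 21.9, 4.75 and 33.9 CPM in PS+CH. The 7 photosynthesis genes, which encode subunits of both photosystems and the leaf ferredoxin reductase and were assigned to tags through the study's pathway table, summed to 3.83, 4.09, 3.00, 13.0 and 2.31 CPM in PS and 9.73, 47.9, 12.8, 2.75 and 16.1 CPM in PS+CH. Both measures were high in PS replicate 4 and PS+CH replicate 2 and low in PS+CH replicate 4. Of the 7 photosynthesis genes, all but LSAT_5X186721 had a mean under 1 CPM in at least 1 treatment, so their sum rests on low counts. An r over 0.8 with the photosynthesis sum was found for 4 members, all in group 5, and was 0.99 for LSAT_0X5321, which had 3.04, 3.25, 2.49, 7.58 and 2.69 CPM in PS and 3.28, 12.9, 4.26, 1.40 and 5.30 CPM in PS+CH. LSAT_0X5321 was the only member with this r at or over 0.9, and it was named after its values were seen. In group 1 the median of this r was 0.475 and the highest 0.661, and its highest PS pool, replicate 2, had 4.09 CPM of the photosynthesis genes. Whether green tissue in the pools had a part in these values was not tested.

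The last 10 members fell into groups of 3, 2 and 2 genes and 3 single genes, with means between 1.30 and 9.69 CPM. LSAT_2X111781, the most abundant of them, had 18.6, 12.9, 1.98, 8.03 and 3.68 CPM in PS and 2.30, 14.7, 15.8, 3.24 and 15.6 CPM in PS+CH, an order that no other member shared closely enough to be grouped with it. It too was named after its values were seen.

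Some members had neighbouring locus tags. When tags with the same number before the X and at most 200 apart after it were joined, 18 members fell into 8 runs, and in 6 of these all members were in 1 group. How often other expressed genes fall into such runs was not counted, so 18 cannot be called many or few. Of all pairs of members 48.1% shared a group, since group 1 is large, and 3 of the 6 runs were pairs in group 1. LSAT_2X79501, LSAT_2X79541, LSAT_2X79581 and LSAT_2X79600 are all 4 genes listed in that stretch of tags, and all were in group 4. LSAT_8X142881 and LSAT_8X142920 are likewise the only 2 listed in theirs, and both were in group 1. LSAT_3X123400 and LSAT_3X123420 shared group 2, and LSAT_1X49341 and LSAT_1X49441 shared group 3. How reads matching several genes were counted is not given in the sources used here, so that near-identical copies among such neighbours could share reads and their separate values are uncertain.

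The pattern of group 1 was not limited to genes that passed the rule. Of the 20159 other expressed genes, 229 (1.14%) had an r of at least 0.9 with the mean profile of the group and 17 had an r of -0.9 or less. Of the 229, 180 had an SD/mean under 0.5 in at least 1 treatment, 78 had a ratio of the treatment means outside the window (63 low and 15 high), and 2 were among the 200 most abundant in PS. Their median SD/mean was 0.326 in PS and 0.402 in PS+CH, a smaller swing of the same shape.

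Of the 38 genes tied to a name in the study, 20 had a mean of at least 1 CPM in both treatments and 18 did not and were not compared. Among these 20, F3'H (LSAT_5X23101, flavonoid 3'-hydroxylase, an enzyme of the flavonoid pathway) followed group 1 most closely, with r = 0.88. It had 1.35, 6.22, 3.80, 2.06 and 3.57 CPM in PS and 1.86, 55.8, 9.14, 1.29 and 21.0 CPM in PS+CH, highest in the replicate 2 pools. Its PS+CH mean was outside the window of the rule. PR1 itself, set aside by the rule, had 0, 0.168, 3.06, 3.23 and 0.0549 CPM in PS and 1.42, 0, 3.40, 0 and 0.726 CPM in PS+CH. It had r of 0.02 with group 1, 0.72 with group 3 and 0.78 with group 4.

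Between the treatments, the rule bounds the ratio of the means, which lay between 0.678 and 1.49 with a median of 0.935, and nothing about the members can be read from the test. These ratios are of CPM without TMM scaling, and every PS pool had a higher TMM factor than every PS+CH pool. With TMM, the median log2-fold change was 0.00028 for the members and 0.0050 for all genes tested. For completeness, edgeR's quasi-likelihood test over 21936 genes called 4065 genes (18.5%) at an adjusted p under 0.05 and none of the 120 members tested. No member had an unadjusted p under 0.05, and the lowest adjusted p was 0.389 (Benjamini-Hochberg over all genes tested). DESeq2 called 5558 of 22491 genes (24.7%) and limma-voom 3964 of 21936 (18.1%). Neither called a member, which the bound on the ratio favours beforehand. LSAT_3X123420 had too few counts to be tested. Without PS+CH replicate 3, LSAT_1X49341 was called with an adjusted p of 0.0377 in edgeR's test, against 0.916 with all pools, and its log2-fold change was then -2.33. It was the only member called when pools were left out in turn. The pool left out was its highest, at 125 CPM, and removing it changes the ratio that the rule bounds. No treatment effect is read from this call.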

How the data were processed

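Root mRNA of 5 PS and 5 PS+CH pools was sequenced strand-specifically on a DNBSEQ platform. The authors aligned reads with STAR 2.7.10 to the L. sativa 'Salinas' genome (v7) and counted them with featureCounts 2.0.1. The deposited values are whole-number counts per gene and pool, without normalization. All 10 columns were used. Groups and replicate numbers came from the sample titles. Nothing says how pools were formed beyond random selection of plants, so p-values measure the spread between these pools.

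CPM are counts over the column total, with totals of 17624520 to 18545790. Fits used edgeR 4.0.16 in R 4.3.3 (TMM, filterByExpr with a minimum count of 10, glmQLFit and glmQLFTest, Benjamini-Hochberg over 21936 genes), and groups used scipy 1.17.1. The scripts were tested on simulated data. DESeq2 1.42.0, limma 3.58.1, other scalings, thresholds, tree cuts and a replicate block were alternatives, and each pool was left out in turn.

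The members and gene lists were chosen with earlier results of these data known. Named genes are the 12 members with the highest mean, the 12 with the largest smaller SD/mean of both treatments, the 5 nearest the mean profile of each group of at least 10 members, and 4 genes at the threshold. Other members given by tag in the text, LSAT_0X5321 and LSAT_1X49441 among them, were named after their values were seen. Lists of genes by product name, for defense, heat shock, lignin and the like, could not be applied, since the table of version 11 of the Salinas assembly shares no tag with the counts. The photosynthesis tags were assigned through fold changes in the study's pathway table.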

Additional observations from a re-analysis of the deposited data

Results flagged for a closer look

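Of 74 sets of 5 pools examined (named members, group sums and the photosynthesis sum, in each treatment), 21 had a highest pool whose gap to the next, over the range of the set, was above 0.71, Dixon's limit for 5 values. For normally distributed values chance flags about 1 in 20 sets, and the rate for CPM values such as these was not computed. Members were chosen for their spread and move together, so the 21 are not independent. No explanation was weighed.

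PS replicate 2 stood apart for LSAT_1X40420 (66.5 CPM), LSAT_9X16260 (72.7 CPM) and LSAT_6X8401 (24.1 CPM). PS+CH replicate 2 stood apart for the same 3 genes (49.2, 66.0 and 21.2 CPM) and for LSAT_5X73301 (34.0 CPM). PS replicate 4 stood apart for LSAT_2X79581 (21.5 CPM), LSAT_2X79541 (7.08 CPM), LSAT_4X182521 (5.46 CPM), LSAT_2X79600 (13.1 CPM) and LSAT_2X79501 (12.5 CPM), for the sums of group 4 (71.6 CPM) and group 5 (60.8 CPM) and for the photosynthesis sum (13.0 CPM). LSAT_3X123420 stood apart in PS replicate 1 (5.91 CPM) and in PS+CH replicate 5 (4.24 CPM). PS+CH replicate 5 stood apart for LSAT_1X128160 (82.1 CPM) and the sum of group 2 (158 CPM), and PS+CH replicate 3 for LSAT_1X49341 (125 CPM) and the sum of group 3 (259 CPM).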

How the results depend on the processing

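The number of members depended on the thresholds, being 221 at an SD/mean of 0.4, 74 at 0.6, 78 with a mean of at least 2 CPM and 36 with at least 5 CPM. It was 114 with TMM-scaled library sizes (104 of them among the 121) and 117 with DESeq2 size factors (105 shared). Leaving out 1 pool gave 75 to 139 members, with 75 (64 shared) without PS replicate 1 and 81 (46 shared) without PS+CH replicate 2. Leaving out both replicate 2 pools, chosen after seeing the data, gave 89 (51 shared). The share highest in PS replicate 3 was 20.2% with TMM, 18.8% with DESeq2 size factors, 18.9% at an SD/mean of 0.6, 19.4% at 5 CPM and 18.0% to 74.8% with a pool left out, the highest without PS replicate 2 and the lowest without PS+CH replicate 3. The share highest in PS+CH replicate 2 was 80.6% at 5 CPM and 69.9% to 79.8% with a pool left out. The shares of all expressed genes under these settings were not computed, so the shifts have no background beside them. The cause of these shifts beyond the changed choice of genes was not tested. The largest group held 78 to 86 genes under every alternative run, and 85 without both replicate 2 pools (77 shared). For these group sizes the 121 members chosen with all pools were kept, and the rule was not applied again. Members called between treatments were 0 to 1 with a pool left out (the 1 without PS+CH replicate 3). In these fits 6.78% (without PS+CH replicate 1) to 18.6% (without PS replicate 2) of all genes tested were called. For the 30 named genes, SD/mean was within 1.5 times its value in 120 of 120 cases of other scaling and 278 of 300 cases of a left-out pool.

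The titles number the pools 1 to 5 in both treatments. Deviations of same-numbered pools had a mean r of 0.26 over 21936 genes (-0.01 to 0.48), over 0.1 in 3 of 5 pairs, and 5 of 10 pools correlated best with their own number, so the numbers were not taken as pairing. The mean r was -0.13 over the 4 pairs with the same number in the description codes. The same title number was highest in both treatments for 57.9% of members, 73.5% of group 1 and 31.0% of expressed genes. With the replicate block, edgeR's test called 2 members, LSAT_6X8401 (adjusted p 0.0361) and LSAT_8X142920 (0.0472), and 6199 genes in all (28.3%). A block by the numbers in the description codes, over 8 libraries, called 0 of all 22064 genes tested, so it tells nothing about the members.

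Depth limits members near 1 CPM, where 18.0 counts lie behind a value.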
